A study of Mus musculus with 6 samples.

Results

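The anoctamin (TMEM16) and CLCA genes were followed in the mouse mammary carcinoma cell line 4T1, in 3 libraries of cells with the empty pLVX vector (control, labelled WT) and 3 libraries of cells with pLVX carrying LINC01133, a human long noncoding RNA (labelled LINC01133 overexpression). The 9 genes Ano1, Ano3, Ano4, Ano5, Ano6, Ano8, Ano9, Ano10 and Clca3a1 were chosen by symbol from a table of 31854 rows, with their values in this same contrast known, so their levels and fold changes are a description and carry no test. Of the 9, 6 passed the filter on low counts and stood among the 14116 genes tested, while Ano3, Ano4 and Ano5 did not. All 9 were accounted for in the table. The labels give no treatment and do not say whether a vector line is a pool or a clone, whether both lines came from the same parental cells, or whether the libraries of a group came from separate cultures. Effects of LINC01133 and of other differences between the lines cannot be told apart.

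Anoctamins are membrane proteins that form dimers, and many are gated by calcium. Ano1 and Ano2 are calcium-activated chloride channels, Ano6 is a calcium-activated lipid scramblase that brings phosphatidylserine to the outer leaflet of the plasma membrane and also passes ions, and several of the others scramble lipids or sit in internal membranes. CLCA proteins were first described as calcium-activated chloride channels and are now regarded as secreted or membrane-anchored proteins that act on channels, so the name of the group does not mean that every member is a channel. Human ANO1 lies in a chromosome band that is often amplified in breast and in head and neck cancers, and channel activity of Ano1 drives fluid secretion in glandular epithelia.

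The main differences were the presence of Ano1 and a higher level of Ano6 with LINC01133, and the absence of Clca3a1 reads there. The bases before the start sites of these 3 genes are shown. The windows of Ano1 and Ano6, which were higher, and of Clca3a1, which was lower, are of unlike composition. Each window holds the 250 bases before a RefSeq start site on GRCm38.p6, the assembly also called mm10, written along the strand of the gene. Capitals mark a GC box (GGGCGG) or a CCAAT box (CCAAT) on either strand, and these kinds do not overlap in these windows. They lie at chr7:144738574-144738823 on the minus strand for Ano1, at chr15:95790593-95790842 on the plus strand for Ano6 and at chr3:144760978-144761227 on the minus strand for Clca3a1.
Ano1: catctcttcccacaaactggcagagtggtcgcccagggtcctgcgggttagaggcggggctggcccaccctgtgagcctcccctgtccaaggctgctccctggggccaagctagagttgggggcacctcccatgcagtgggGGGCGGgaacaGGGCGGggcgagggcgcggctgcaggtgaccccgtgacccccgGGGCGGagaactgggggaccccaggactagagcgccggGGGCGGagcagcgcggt
Ano6: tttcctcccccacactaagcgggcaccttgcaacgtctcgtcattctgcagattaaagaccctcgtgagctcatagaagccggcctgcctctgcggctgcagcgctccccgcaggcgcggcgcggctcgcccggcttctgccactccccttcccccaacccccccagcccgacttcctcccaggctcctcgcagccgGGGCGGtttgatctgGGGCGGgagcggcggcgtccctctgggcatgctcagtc
Clca3a1: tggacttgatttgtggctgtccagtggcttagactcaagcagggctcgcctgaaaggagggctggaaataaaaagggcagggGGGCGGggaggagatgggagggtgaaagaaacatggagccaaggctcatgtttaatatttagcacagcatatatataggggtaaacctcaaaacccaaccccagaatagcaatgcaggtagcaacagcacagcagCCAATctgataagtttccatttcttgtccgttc
The Ano1 window was 72.0% G or C with 16 CpG, and held 4 GC boxes. The Ano6 window was 68.4% G or C with 22 CpG, and held 2 GC boxes. The Clca3a1 window was 48.8% G or C with 3 CpG, and held 1 GC box and 1 CCAAT box. Over all 32851 such windows of the RefSeq table the medians were 52.4% and 6 CpG, 32.7% held a GC box and 33.8% a CCAAT box. No window of the 3 held the letters TATAAA, found in 12.4% of all windows, CACGTG, in 6.02%, or TGANTCA, the letters of an AP-1 site, in 6.75%. Of the 9 genes, 7 had an entry in that table, and Ano8 and Ano9, both also called higher, had none. Ano10, which was lower with LINC01133, had a window of 65.2% G or C with 17 CpG and 5 GC boxes, so a GC-rich window was found with both directions.

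Ano1 (uc009kqn.2, chromosome 7, 144588549 to 144751974 on mm10, minus strand) had no read in any control library and 2458, 2952 and 2666 counts in LINC01133 libraries 1, 2 and 3. Scaled to library size these were 83.4, 81.4 and 80.5 CPM, with a mean of 81.8 ± 1.51 (SD, n = 3). CPM stands for counts divided by the TMM-scaled library size and is the unit of all levels below. Against a floor of 3 counts over the control libraries, which is 0.0417 CPM, Ano1 was at least 1958-fold higher. The 3 LINC01133 libraries lay within a few CPM of each other and the groups were fully apart. The printed Ano1 window lies inside the annotated span of the gene, at one of its inner start sites, and gene-level counts do not show which start was used.

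Its closest relative, Ano2 (uc009duw.2), a chloride channel of sensory neurons, was near the detection limit, with 0, 1 and 0 counts in the controls and 5, 3 and 4 with LINC01133. The ratio of these sums was 8.73, with an exact 95% counting interval of 1.29 to 373. Ano2 did not pass the filter and was not tested. At these counts the 2 channel genes differed widely in level: per kilobase of gene length, Ano1 reached 17.8 ± 0.328 and Ano2 0.0227 ± 0.00796 CPM per kilobase with LINC01133.

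Ano6 (uc011zyg.2, chromosome 15, 95790843 to 95974751, plus strand), the scramblase gene whose loss in humans causes the bleeding disorder Scott syndrome, was the most abundant of the 9 genes with LINC01133. Its levels were 94.4, 95.4 and 93.7 CPM in the controls and 316.5, 310.8 and 319.1 CPM with LINC01133. The means were 94.5 ± 0.822 and 315.5 ± 4.26 CPM (SD, n = 3), 3.34-fold higher (log2 fold change 1.74, SE 0.027). The gap between the groups was many times the spread within either.

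Ano10 (uc009ser.2, chromosome 9, 122175874 to 122294423, minus strand) encodes an anoctamin of internal membranes, and its human counterpart is mutated in a recessive cerebellar ataxia. It was lower with LINC01133, at 59.6, 59.5 and 58.3 CPM in the controls and 31.1, 33.3 and 33.3 CPM with LINC01133. The means of 59.1 ± 0.688 and 32.6 ± 1.252 CPM (SD, n = 3) gave a log2 fold change of -0.86 (SE 0.0458), and the groups did not overlap.

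Ano8 (uc009mdl.2, chromosome 8, 71476019 to 71485963, minus strand), which tethers the endoplasmic reticulum to the plasma membrane, differed little. It stood at 54.0, 51.8 and 54.1 CPM in the controls and at 57.4, 63.4 and 57.7 CPM with LINC01133, means of 53.3 ± 1.28 and 59.5 ± 3.39 CPM (SD, n = 3; log2 fold change 0.16, SE 0.0418). The groups did not overlap, but the highest control and the lowest LINC01133 library were a few CPM apart, closer than LINC01133 library 2 was to the other two. Ano8 shares 80 exonic bases with Dda1 on the opposite strand, and since the use of strand in counting is not given in the sources used here, part of its reads may be those of Dda1, which was at 45.6 ± 2.18 and 48.5 ± 1.33 CPM.

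Ano9 (uc012fwo.1, chromosome 7, 141101212 to 141117806, minus strand), an epithelial anoctamin, was detected at low counts in every library. It had 16, 12 and 11 counts in the controls and 24, 32 and 39 with LINC01133, or 0.541 ± 0.10 and 0.958 ± 0.193 CPM (SD, n = 3; log2 fold change 0.82, SE 0.32). The groups did not overlap, although at these counts the ratio of the sums, 1.77, had an exact 95% counting interval of 1.21 to 2.64. Its call across all genes was lost without control 2, control 3 or LINC01133 replicate 3, with log2 fold changes of 0.76, 0.72 and 0.65.

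The other 3 anoctamins among the 9 genes were nearly silent. Ano3 (uc012caw.2, chromosome 2), mutated in a human dystonia, had no control read and 3, 4 and 9 counts with LINC01133. Ano4 (uc033frt.1, chromosome 10) had no control read and 4, 1 and 7 counts. The sums correspond to at least 3.88-fold and at least 2.91-fold higher levels against the floor of 3 counts over the control libraries. Ano5 (uc009hcc.2, chromosome 7) is the anoctamin of skeletal muscle that is mutated in a human limb-girdle muscular dystrophy. The 6 libraries together held 1 Ano5 count, in LINC01133 library 3, which lies under the floor and allows no fold. Ano3 and Ano6 also share exonic bases with genes of the opposite strand (61 with Muc15 for Ano3, 214 and 122 with a pair of noncoding transcripts for Ano6), and Clca3a1 shares 170 with an antisense transcript (Gm34866). Reads of these partners are not analysed here.

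Clca3a1 (uc008rpx.2, chromosome 3, 144729677 to 144760977, minus strand) had 790, 773 and 809 counts in the controls and none in any LINC01133 library. In CPM the control values were 32.4, 32.2 and 34.5, with a mean of 33.0 ± 1.30 (SD, n = 3). Against the floor of 3 counts over the LINC01133 libraries, which is 0.0303 CPM, the gene was at least 1087-fold lower. The pattern was the reverse of Ano1, with all reads in one group. A second row of the table also bears the symbol Clca3a1 (uc012cyy.2), with 13, 5 and 6 counts in the controls and 6, 7 and 0 with LINC01133. It was kept apart, and since CLCA genes are near-identical copies in places, reads could be split between them.

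**Figure D1:**
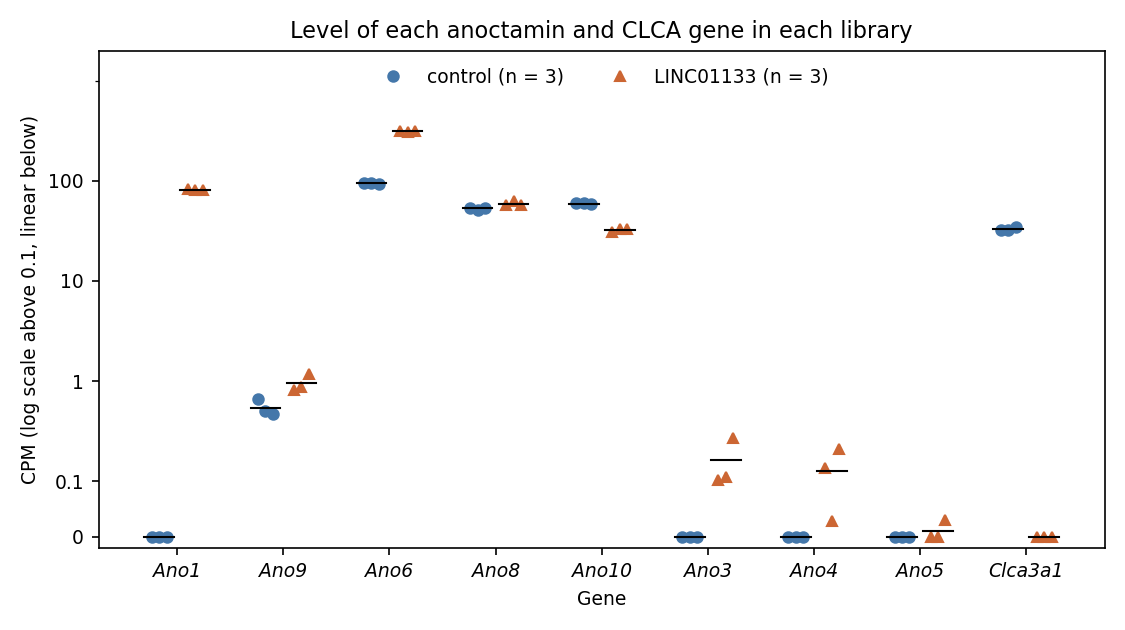
Level of each of the 9 genes in CPM in every library, on an axis that is logarithmic above 0.1 and linear below it; circles are control and triangles LINC01133 libraries, and black lines are means of 3. Ano1 stands at 0 in the controls and at 80.5 to 83.4 CPM with LINC01133, Clca3a1 the other way round at 32.2 to 34.5 CPM and 0, and Ano6 is higher, at 310.8 to 319.1 CPM.

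Of the 6 genes that passed the count filter, Ano1, Ano6, Ano8 and Ano9 were past the threshold of the test across all genes in the higher direction and Ano10 and Clca3a1 in the lower. The test was edgeR's quasi-likelihood test with an adjusted p under 0.05. Over all tested genes 44.5% were called higher and 40.5% lower, 84.9% in all, and the 9 genes were picked from this contrast, so nothing is read from their count. All 6 tested members had groups that did not overlap, as had 85.0% of all tested genes. Under scaling by library size alone all genes shifted up by a median of 0.24 on the log2 scale, and higher calls made up 64.9% of all calls in place of 52.4%. The log2 fold change of Ano8 was then 0.40, a move of the same size as that shift.

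Per length, the family had another order in each group. In the controls Ano10 was highest, at 17.5 ± 0.203 CPM per kilobase, followed by Ano6 at 15.9 ± 0.139, Ano8 at 11.15 ± 0.267 and Clca3a1 at 6.755 ± 0.265 (SD, n = 3). None of these 4 overlapped with its neighbour in the order. With LINC01133 the order was Ano6 at 53.2 ± 0.718, Ano1 at 17.8 ± 0.328, Ano8 at 12.4 ± 0.709 and Ano10 at 9.64 ± 0.371, again with no overlap between neighbours. Ano9 lay far below them in both groups, at 0.1797 ± 0.0332 and 0.318 ± 0.0641. In the controls its range overlapped with that of Clca3b, a CLCA gene of chromosome 3, so that pair has no order.

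Summed per length over the 9 genes, the level was 51.7, 51.3 and 51.6 CPM per kilobase in the controls and 93.0, 93.5 and 93.6 with LINC01133. Ano6 made up 30.9% ± 0.382 of the control sum and 56.9% ± 0.792 of the LINC01133 sum (SD, n = 3). Ano1 made up none of the former and 19.0% ± 0.419 of the latter. The part of Ano10 went from 34.0% ± 0.458 to 10.3% ± 0.362, that of Ano8 from 21.6% ± 0.434 to 13.3% ± 0.745, and that of Clca3a1 from 13.1% ± 0.494 to none. The controls were thus spread over 4 genes, while with LINC01133 the scramblase gene Ano6 held more of the sum than all others together. Ano8 lost part of the sum while its own level was slightly higher, since the sum grew.

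**Figure D2:**
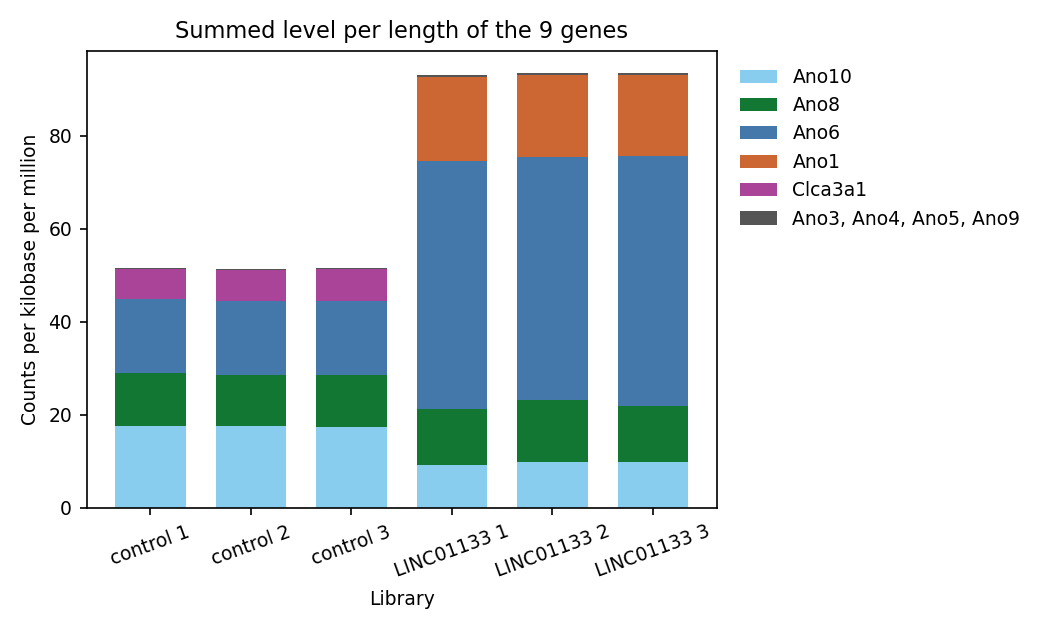
Stacked bars of CPM per kilobase for the 9 genes in each of the 6 libraries; Ano3, Ano4, Ano5 and Ano9 are drawn together and barely show. The bars reach 51.3 to 51.7 in the controls and 93.0 to 93.6 with LINC01133, where Ano6 and Ano1 fill most of the bar.

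Of the anoctamins outside the 9 genes, Ano7 (uc007cdw.2, chromosome 1, 93373930 to 93404303), first described as a prostate antigen, rose from 5, 4 and 2 counts to 86, 105 and 105 counts. In CPM this was 0.152 ± 0.061 to 2.99 ± 0.153 (SD, n = 3), with a log2 fold change of 4.25 (SE 0.32; edgeR adjusted p = 4.05e-25). All 3 LINC01133 libraries lay above all controls. With 0.745 ± 0.0381 CPM per kilobase, Ano7 stood between Ano10 and Ano9 with LINC01133.

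The other CLCA genes of the cluster on chromosome 3 were expressed at low counts. Clca1, known from mucus-secreting goblet cells, fell from 26, 30 and 26 counts to 5, 12 and 11, or from 1.14 ± 0.0957 to 0.278 ± 0.0934 CPM (SD, n = 3; log2 fold change -1.996, SE 0.35; edgeR adjusted p = 1.29e-07). Clca3b had 31 control and 11 LINC01133 counts, 3.88-fold fewer with LINC01133 by the ratio of sums (exact 95% counting interval 1.90 to 8.55). Clca4a had 19 and 13 counts (2.01, interval 0.942 to 4.43), Clca2 had 9 and 5 (2.48, interval 0.745 to 9.4), Clca4b had 1 and 0, and the pseudogene Clca4c-ps had none. Only Clca1 among these passed the count filter. Without the first Clca3a1 row (uc008rpx.2), the other 7 rows of the cluster summed to 166 counts in the controls and 70 with LINC01133. These 7 include the second Clca3a1 row (uc012cyy.2). With the first row the sums were 2538 and 70, so that row carried most of the reads of the cluster in the controls.

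Genes beside Ano1 were mostly lower with LINC01133. Of the 8 tested genes of the mouse region that matches human 11q13, 5 fell, 1 rose and 2 were not called (median log2 fold change -0.29, against 0.05 over all genes). Of all tested genes 40.5% fell and 44.5% rose. Fadd, an adaptor of death receptors, is the nearest by start site of those with a position matched by symbol. It fell from 18.6 ± 1.91 to 14.6 ± 0.936 CPM (log2 fold change -0.35, edgeR adjusted p = 5.73e-06). Ppfia1, a liprin of cell adhesions, went from 116.6 ± 0.669 to 96.6 ± 0.784 CPM (-0.27, adjusted p = 2.38e-14), and Cttn, the actin regulator cortactin, from 257.6 ± 1.12 to 207.5 ± 1.51 CPM (-0.31, adjusted p = 3.11e-24). Ccnd1, which encodes cyclin D1, lies on the other side and fell from 2163 ± 17.5 to 1070 ± 13.1 CPM (-1.02, adjusted p = 5.23e-89).

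Shank2, a synaptic scaffold gene, was the member of that region that rose, from 2.09 ± 0.4295 to 3.28 ± 0.435 CPM (0.64, adjusted p = 0.000474), and Tpcn2, a lysosomal cation channel gene, fell (-1.22). Scaled by library size alone, Fadd and Ppfia1 were no longer called, and 3 genes were lower and 2 higher. Between Ano1 and Ccnd1, the growth factor genes Fgf3, Fgf4 and Fgf15 had group sums of 6 counts or fewer. The window within 1 Mb of the Ano1 start site on either side was chosen after the values were seen. Of its 11 tested genes with a position matched by symbol, 9 fell and 1 rose, beside 40.5% and 44.5% of all tested genes. A further tested gene of the region, which was not called, had no matched position and is left out.

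Around Clca3a1, most genes fell with it, by less. Of the 10 tested genes that flank the cluster, 9 fell and 1 rose (median log2 fold change -0.98), where 40.5% of all tested genes fell. Sh3glb1 encodes the membrane-curving protein endophilin B1 and is the nearest by start site of those with a matched position. It fell from 182.8 ± 3.57 to 94.2 ± 2.17 CPM (-0.96, edgeR adjusted p = 8.27e-64). Lmo4, a LIM-domain transcription regulator of the mammary gland, fell from 94.99 ± 2.73 to 23.9 ± 1.37 CPM (-1.99, adjusted p = 3.06e-80). Sep15, a selenoprotein of the endoplasmic reticulum, fell from 411.8 ± 3.14 to 159.8 ± 3.49 CPM (-1.37, adjusted p = 5.84e-92).

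On the far side of the cluster Odf2l fell (-1.499) and the collagen gene Col24a1 was the one that rose, from no read to 24, 35 and 35 counts, at least 22.8-fold. Under library size alone 9 were again called lower and 1 higher. Some tested flanking genes, Sep15 among them, had no position matched by symbol and are left out of the 1 Mb window. Of the 8 tested genes placed within 1 Mb of the Clca3a1 start site, 7 fell and 1 rose. Among all tested genes 40.5% fell and 44.5% rose. Each of those that fell kept reads in the LINC01133 libraries, unlike Clca3a1. Sh3glb1, Odf2l, Col24a1 and the 1 Mb window were chosen after the values were seen.

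**Figure D3:**
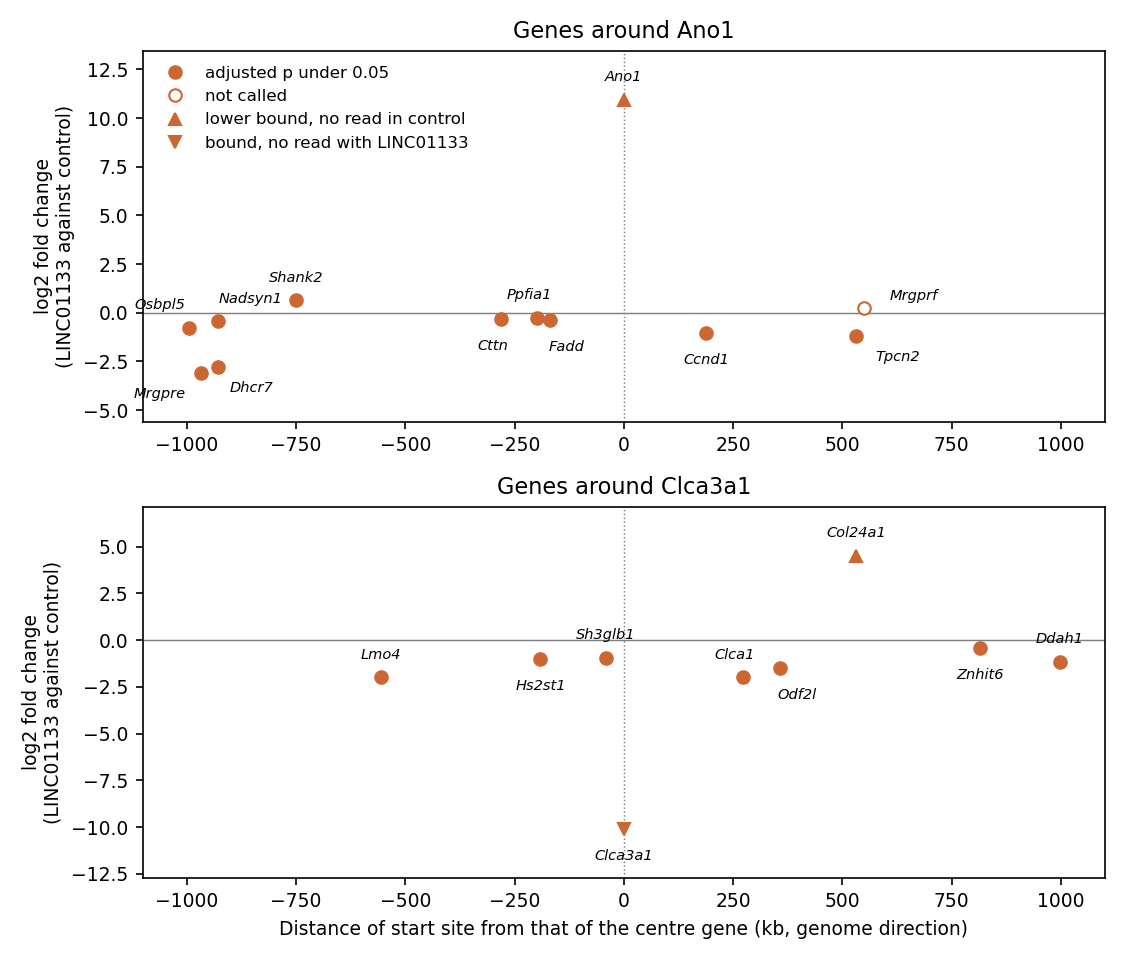
Fold change on the log2 scale of tested genes against start-site distance, in kb, from Ano1 (upper panel) and Clca3a1 (lower panel). Tested genes with no position matched by symbol are not drawn. Filled symbols were called and open ones were not, and triangles are bounds where a group had no read; the neighbours of Ano1 lie between -3.08 and 0.64, and those of Clca3a1 below 0 except Col24a1.

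The other chloride channels moved both ways. Cftr, the cAMP-gated chloride channel of secretory epithelia, had 1 count over the 6 libraries together, in the LINC01133 group. Of 4 tested bestrophin and tweety genes 2 rose and 2 fell, where 44.5% of all tested genes rose and 40.5% fell. Best1, a calcium-activated anion channel gene, rose from 1.22 ± 0.198 to 3.36 ± 0.327 CPM (log2 fold change 1.46, edgeR adjusted p = 1.38e-11), and Best2 went from 1 to 187 counts, a ratio of 136.0 with an exact 95% counting interval of 24.1 to 5400, and was chosen after its values were seen. Ttyh2 and Ttyh3 fell slightly (-0.26 and -0.32) and were not called under library size alone.

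Of 10 tested ClC channel and exchanger genes with their subunits, 3 rose, 5 fell and 2 were not called (median -0.17). Among all tested genes 44.5% rose and 40.5% fell. Clcn5, the endosomal exchanger mutated in human Dent disease, fell from 54.4 ± 1.46 to 14.96 ± 0.0901 CPM (-1.86, adjusted p = 1.96e-65), and Clcn4 by a log2 fold change of -0.99. Clcn2, a channel of the plasma membrane, rose from 12.1 ± 0.890 to 21.9 ± 0.698 CPM (0.85, adjusted p = 4.57e-22). Clcn3 was not called (-0.05, SE 0.033, adjusted p = 0.179) and had the opposite sign under library size alone (0.20) and upper-quartile scaling (0.052). By library size alone the split of this list became 5 higher and 3 lower.

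Of 5 tested genes of volume- and acid-activated anion channels, all of them LRRC8 subunits of the volume-regulated kind, 4 rose and none fell (median 0.21), where 44.5% of all tested genes rose and 40.5% fell. Lrrc8a, the subunit that volume-regulated anion channels need, went from 92.5 ± 0.571 to 102.2 ± 2.37 CPM (0.14, adjusted p = 2.34e-05), and Lrrc8d from 62.7 ± 3.61 to 178.6 ± 1.13 CPM (1.51, adjusted p = 7.31e-82). Lrrc8e rose from 0.237 ± 0.0279 to 2.92 ± 0.424 CPM (3.60, adjusted p = 1.32e-22). Of 3 tested CLIC genes 2 fell, Clic1 from 283.9 ± 4.18 to 130.3 ± 1.07 CPM (-1.12, adjusted p = 2.81e-78) and Clic4 from 313.5 ± 8.34 to 250.4 ± 3.03 CPM (-0.32). The third, Clic3, was not called (0.60, SE 0.36, edgeR adjusted p = 0.115). Of the CLIC genes 1 was called higher under library size alone, with no count filter, and without control 1, control 2, control 3 or LINC01133 replicate 2.

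Of 15 tested chloride cotransporters and exchangers, 8 rose, 3 fell and 4 were not called (median 0.24). For comparison, 44.5% of all tested genes rose and 40.5% fell. Slc12a2, the cotransporter NKCC1 that loads secretory cells with chloride, fell from 287.6 ± 3.41 to 240.9 ± 4.09 CPM (-0.26, adjusted p = 3.28e-19), and was not called under library size alone. Slc12a7, a potassium-chloride cotransporter, fell (-0.40). Slc26a11 went from 3 to 431 counts, a ratio of 104 with an exact counting interval of 35.5 to 509. Slc4a3, a chloride-bicarbonate exchanger, fell from 17.3 ± 1.10 to 0.394 ± 0.0257 CPM (-5.44, adjusted p = 5.46e-67).

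Since Ano6 is a scramblase, the genes of lipid scrambling and of the flippases that act against it were counted too. Of 20 tested genes 11 rose, 8 fell and 1 was not called (median 0.10), where 44.5% of all tested genes rose and 40.5% fell. Atp9a, an endosomal P4-ATPase, went from 3, 4 and 9 counts to 3104, 3841 and 3522, or from 0.2244 ± 0.1398 to 105.9 ± 0.493 CPM (SD, n = 3; log2 fold change 8.87, edgeR adjusted p = 1.35e-113). Atp11b rose from 42.6 ± 1.63 to 97.1 ± 1.94 CPM (1.19), while Atp8a1, a phosphatidylserine flippase, fell from 20.8 ± 1.80 to 0.374 ± 0.152 CPM (-5.74, adjusted p = 3.42e-71). Atp8b2 fell by 0.91 on the log2 scale.

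Tmem30a, the shared subunit of most flippases, rose from 129.6 ± 1.78 to 156.8 ± 5.81 CPM (log2 fold change 0.27, adjusted p = 2.84e-16) and was chosen after its values were seen. Plscr1, a protein once named a scramblase, rose from 35.6 ± 2.11 to 56.3 ± 2.13 CPM (0.66, adjusted p = 1.23e-27). Xkr8, the scramblase that caspases activate, was at 7.63 ± 0.514 and 6.37 ± 0.711 CPM and called lower (-0.25, adjusted p = 0.0233), but its call was lost under 7 alternatives, among them without control 1, control 2, LINC01133 replicate 1 or LINC01133 replicate 3. Of the TMC and TMEM63 genes, distant relatives of the anoctamins, 3 of 5 tested rose and 2 fell, beside 44.5% and 40.5% of all tested genes. Tmc4 was at 1.495 and Tmc6 at -0.98 on the log2 scale.

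Of 31 tested genes of calcium supply, 16 rose and 13 fell (median 0.16), where 44.5% of all tested genes rose and 40.5% fell. Trpv4, a calcium-permeable channel of the plasma membrane that has been shown to couple to Ano1 in secretory epithelia, had 1 count in each control and 3004, 3750 and 3542 with LINC01133. Its ratio of sums was 2496, with an exact 95% counting interval of 854 to 12105. P2ry2, a nucleotide receptor that releases stored calcium, rose from 0.195 ± 0.0653 to 8.98 ± 0.780 CPM (5.50, edgeR adjusted p = 1.32e-49). It was also chosen after its values were seen. The log2 fold changes of the list ran from -5.87, for a gene the naming rule did not pick, to 11.14 for Trpv4.

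The inositol trisphosphate receptors, which release calcium from the endoplasmic reticulum, fell, Itpr3 from 481.7 ± 6.19 to 265.4 ± 7.39 CPM (-0.86, adjusted p = 1.32e-70), Itpr2 from 80.3 ± 4.25 to 40.4 ± 1.02 CPM (-0.99) and Itpr1 from 153.8 ± 3.28 to 128.2 ± 2.10 CPM (-0.26, not called under library size alone). Atp2a2, the pump that refills this store, rose from 398.7 ± 12.4 to 706.8 ± 5.82 CPM (0.83, adjusted p = 3.59e-71). Orai1, the pore of store-operated entry, rose (0.36, adjusted p = 0.00017), and its sensor Stim1 was called lower (-0.16, adjusted p = 0.00284) but had the opposite sign under library size alone (0.079). Calm3, one of the calmodulin genes, fell (-0.97).

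Of 8 tested genes of cortical linkers, EGFR and CaMKII, 4 rose, 3 fell and 1 was not called (median 0.05). Among all tested genes 44.5% rose and 40.5% fell. Ezrin, radixin and moesin link membrane proteins to actin and have been found with Ano1. Ezr rose from 164.3 ± 4.61 to 184.5 ± 5.03 CPM (0.17, edgeR adjusted p = 1.43e-08) and Rdx by 0.22 on the log2 scale. Msn, the moesin gene, was not picked by the naming rule and its value is not printed, so no common direction of these linkers is read. Camk2g rose (0.44), while Camk2d (-0.84) and Camk2a (-1.70) fell. Egfr, a receptor that Ano1 has been tied to in breast cancer cells, was low in both groups, at 1.57 ± 0.434 and 1.26 ± 0.219 CPM, and was not called (-0.32, SE 0.24, adjusted p = 0.205).

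**Figure D4:**
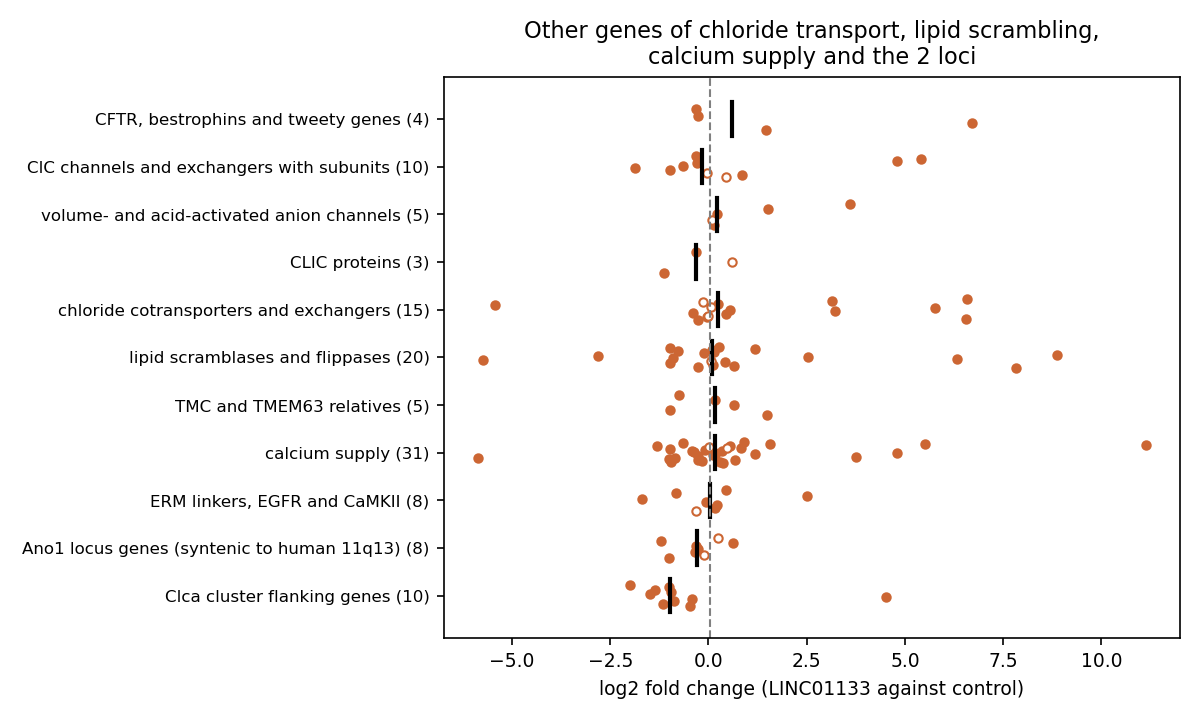
Each point is a tested gene of a list, placed by its log2 fold change, or by a lower bound where the controls had no read. Filled points were called and open ones were not. Black bars are list medians of the log2 fold change and the dashed line is the median of all genes, 0.05. The number of tested genes is in brackets. Among the lists drawn, the flanking genes of the Clca cluster have the lowest median, -0.98.

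Genes with the most similar pattern were found by the Euclidean distance over the 6 libraries in log2(CPM + 0.5), among 14115 other tested genes. Nearest to Ano1 were the neurotrophin receptor gene Ngfr (distance 0.293, 0 and 73.1 ± 2.45 CPM), the protocadherin gene Pcdh1 (0.326) and Tgfa, which encodes a growth factor (0.514). Nearest to Clca3a1 were Rbms3, an RNA-binding protein gene (0.253), the forkhead factor gene Foxd1 (0.324) and Prrg1 (0.326). Nearest to Ano6 were Oaf (0.174), Mfge8, a secreted protein that binds phosphatidylserine (0.283, 105.0 ± 5.56 and 308.8 ± 2.89 CPM), and the kinase gene Sgk1 (0.292). Nearest to Ano10 were Echs1 (0.0760), Acadsb (0.105) and Hsd17b4 (0.108), enzymes of fatty acid and amino acid breakdown. With 2 groups of 3 libraries this distance mostly measures the level in each group.

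Markers of the cell types in which these genes are best known moved too, and their part in the results was not tested. Over all tested genes 84.9% were called, 44.5% higher and 40.5% lower, so nothing is read from the counts of called markers. In bulk RNA, fewer cells of a type and less RNA per cell cannot be told apart. The 6 luminal epithelial markers summed to 145.3 to 151.9 CPM in the controls and 381.5 to 389.3 CPM with LINC01133, with 5 of 5 tested called higher and Epcam at 0 in the controls, and the 5 basal markers to 9.74 to 10.7 and 2.34 to 3.20 CPM, with 4 of 4 lower. Interstitial cells of Cajal, for which Ano1 is a marker, had Kit at 0 in the controls and a sum of 15.2 to 17.4 and 18.3 to 19.3 CPM for 3 markers. Only 1 of these was tested, and it was called higher. Goblet and secretory markers summed to at most 0.778 and 3.19 CPM, with 2 of 3 tested called higher and Agr2 at 0 with LINC01133. Skeletal muscle markers summed to 8.23 to 9.95 and 2.45 to 3.89 CPM, with 1 called higher and 2 lower of 3 tested. Myh1 and Myod1 were at 0 in the controls. Neuron markers summed to at most 1.38 CPM in any library, with 1 of 1 tested called higher. Endothelial markers summed to 0.291 to 0.896 CPM in the controls and 15.9 to 16.2 CPM with LINC01133, with 3 of 3 tested called higher and Cdh5 at 0 in the controls. Leukocyte markers summed to 3.20 to 3.91 and 17.1 to 18.3 CPM, with 2 of 2 tested called higher and Cd3e and Adgre1 at 0 in the controls. Adipocyte markers summed to 0.041 to 0.0853 and 0.513 to 0.551 CPM, with none tested and Adipoq and Plin1 at 0 in the controls. Fibroblast markers summed to 168.4 to 173.7 and 19.3 to 20.1 CPM, with 1 called higher and 3 lower of 4 tested and Lum at 0 in both groups. The 4 mesenchymal markers summed to 3412 to 3498 and 3995 to 4037 CPM, with 2 called higher and 2 lower. Total counts were 25521469 to 33877549 per library, and Rn45s, the ribosomal RNA precursor, took 25.4% to 27.9% of control and 21.0% to 23.0% of LINC01133 counts.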

How the data were processed

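Total RNA of 3 control and 3 LINC01133 samples, grouped by title, went into TruSeq libraries, as the labels' protocols state. Deposited by the authors were raw, whole-number counts per gene row with a gene length, per the file headers. The submitters' processing notes name bcl2fastq and build mm10. The sources used here give no aligner, counter, annotation version or strand setting. The columns of no sample numbered 0. Where rows shared a symbol, the one with the highest mean kept it.

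Members and lists were chosen with earlier results of these data known. Across 14116 genes kept by filterByExpr, glmQLFTest of edgeR 4.0.16 (quasi-likelihood, robust option, TMM scaling) was run in R 4.3.3, with Benjamini-Hochberg adjustment; a gene with adjusted p under 0.05 is called. SE is the log2 fold change divided by the square root of F. CPM is on TMM-scaled library sizes. Floors of 3 counts and exact (Clopper-Pearson) 95% intervals cover counting error only. Replicates of a group differed by a chi-square of 1.61 to 2.32 per degree of freedom, which does not show whether they came from separate cultures. Each library was counted once. The fitted common coefficient of variation between libraries was 0.0237. The labels name no separate cultures, so p-values reflect library-to-library spread alone, possibly technical. The fit was also run on counts simulated from its own model with few changed genes. That run cannot test the scaling or the error rate where most genes are called, as here.

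Named genes were all anoctamins and CLCA genes, the 2 called genes of smallest p in each direction of each list with at least 1 CPM, 17 set by name, and the 3 genes nearest in pattern to each of Ano1, Clca3a1, Ano6 and Ano10; exceptions are marked, and not all are printed. Positions are from GENCODE M21 (mm10), matched by symbol, and promoters from RefSeq (GRCm38.p6). Alternatives were RLE, library size and upper-quartile scaling, other count filters, a replicate block, dispersions without the robust option, each library left out, Rn45s left out, DESeq2 1.42.0 and limma voom 3.58.1. Figures used matplotlib 3.10.9.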

Additional observations from a re-analysis of the deposited data

How the results depend on the processing

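The 6 tested genes among the 9 kept their direction under the alternatives that tested them, 15 for Ano9 and 16 for the others. The log2 fold change ran from 1.72 to 1.98 for Ano6, 0.11 to 0.40 for Ano8, 0.65 to 1.06 for Ano9 and -0.88 to -0.62 for Ano10. Ano9 lost its call without control 2, control 3 or LINC01133 replicate 3 (log2 fold changes 0.76, 0.72 and 0.65) and was not tested with the filter of 1 CPM. Without a count filter, Ano3 and Ano4 were called as well, 6 of the 9 higher instead of 4. By library size alone 7838 of all genes were higher and 4235 lower, against 6280 and 5710; with a replicate block 6188 and 5629. The replicate numbers did not pair the libraries (correlations of same-numbered deviations -0.0226 to -0.00842), and the block changed no call of a named gene. Reversed signs were those of Clcn3 by library size alone (0.20) and upper quartile (0.052) and of Stim1 by library size alone (0.079). At 3 counts per library the limit was 0.0827 to 0.128 CPM, which bounds the statements on Ano2, Ano3, Ano4, Ano5 and the minor CLCA genes.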
